A study of Mus musculus with 6 samples.

Results

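Binding of Dppa2 was examined at the genes of 10 transcription factors of naive pluripotency, namely Klf2, Klf4, Klf5, Tcfcp2l1, Esrrb, Tbx3, Zfp42, Prdm14, Nanog and Pou5f1. The genes were taken by name from the GENCODE M1 annotation of the mm9 mouse genome, where all 10 were found among 22367 protein-coding genes. A gene was called bound when the midpoint of a Dppa2 peak lay within 1000 bp of a transcription start site (TSS) of any of its transcripts. By this definition, Klf4, Klf5 and Tcfcp2l1 were bound and the other 7 genes were not.

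The peaks come from chromatin immunoprecipitation and sequencing (ChIP-seq) with an anti-V5 antibody on CGR8 cells, a mouse embryonic stem cell (ESC) line cultured feeder-free with LIF and serum. These cells carried Dppa2 with an N-terminal V5 tag under the pPyCAG promoter, in addition to their own Dppa2 gene, as stable transfectants selected with puromycin. The control was the same anti-V5 ChIP on the parental CGR8 line without the tag, which entered only through the authors' peak calling. There was 1 library for each, so no replicate error can be given and no difference was tested, and it is not stated here from how many clones the tagged line was grown. Of the 6 samples of the series, the other 5, among them the ChIPs for 4 histone marks, were not analysed here. A peak list holds no RNA levels, so the identity of the cells could not be checked from marker genes.

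Naive pluripotency is the state of the inner cell mass of the preimplantation embryo and of ESCs kept with LIF. It is held by a network of transcription factors that bind each other's regulatory regions, with Pou5f1 (Oct4) and Nanog at its centre and ancillary factors such as Esrrb, Tbx3, Tcfcp2l1 and the Krüppel-like factors around them. LIF acts through STAT3 on several of these ancillary genes, and FGF and ERK signalling drives cells out of the state. Dppa2 is a nuclear protein with a SAP domain, a DNA-binding fold, and is expressed in pluripotent cells and in the germ line.

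The promoters of these genes differed widely in their content of CpG dinucleotides, which is shown here by the 200 bases directly upstream of the TSS of 6 genes. The first 3 are the bound genes, and their 200 bases lie completely within the Dppa2 peak. The last 3 are genes that were not bound. Klf2 is shown because it carried as many CpG as Klf4, Nanog because it was the unbound gene nearest to a peak, and Pou5f1 because it lies at the centre of the network. Sequences are mm9 reference bases, written 5′ to 3′ on the strand of the gene, and capitals mark each CpG.
Klf4 (chr4:55545348-55545547, minus strand): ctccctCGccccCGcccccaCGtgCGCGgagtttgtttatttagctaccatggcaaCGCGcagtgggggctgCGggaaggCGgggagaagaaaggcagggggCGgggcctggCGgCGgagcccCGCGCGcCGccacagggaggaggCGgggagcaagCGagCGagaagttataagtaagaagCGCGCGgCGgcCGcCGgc
Klf5 (chr14:99697710-99697909, plus strand): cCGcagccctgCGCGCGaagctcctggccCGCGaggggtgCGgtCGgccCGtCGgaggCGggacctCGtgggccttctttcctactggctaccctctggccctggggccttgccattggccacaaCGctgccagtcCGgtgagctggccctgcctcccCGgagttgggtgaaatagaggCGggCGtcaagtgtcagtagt
Tcfcp2l1 (chr1:120524322-120524521, plus strand): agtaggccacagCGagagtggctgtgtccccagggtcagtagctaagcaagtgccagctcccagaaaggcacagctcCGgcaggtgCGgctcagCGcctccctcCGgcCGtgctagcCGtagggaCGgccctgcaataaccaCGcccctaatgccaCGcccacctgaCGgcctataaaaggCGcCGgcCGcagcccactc
Klf2 (chr8:74842732-74842931, plus strand): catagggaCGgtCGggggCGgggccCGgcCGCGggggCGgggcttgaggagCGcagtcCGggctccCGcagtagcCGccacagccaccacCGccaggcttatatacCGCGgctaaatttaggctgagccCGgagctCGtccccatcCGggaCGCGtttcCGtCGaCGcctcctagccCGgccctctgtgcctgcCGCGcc
Nanog (chr6:122657307-122657506, plus strand): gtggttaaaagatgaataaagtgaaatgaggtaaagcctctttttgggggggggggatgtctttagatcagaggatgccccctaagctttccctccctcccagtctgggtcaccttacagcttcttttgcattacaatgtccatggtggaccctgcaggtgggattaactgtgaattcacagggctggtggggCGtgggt
Pou5f1 (chr17:35642782-35642981, plus strand): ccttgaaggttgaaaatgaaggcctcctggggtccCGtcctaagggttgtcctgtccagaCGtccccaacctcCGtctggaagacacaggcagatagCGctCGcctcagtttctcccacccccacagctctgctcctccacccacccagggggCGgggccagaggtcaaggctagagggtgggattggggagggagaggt

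These stretches held 25 CpG at Klf4, 17 at Klf5 and 14 at Tcfcp2l1, against 25 at Klf2, 1 at Nanog and 6 at Pou5f1. Among the genes not printed, Tbx3 had 19 CpG in its 200 bases, Zfp42 had 7, Prdm14 had 5 and Esrrb had 3. The bound genes were therefore on the CpG-rich side of the group, but Klf2 and Tbx3, which were not bound, had more CpG here than Klf5 and Tcfcp2l1.

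Of the 10 genes, 3 were bound, which is 30% with an exact Clopper-Pearson 95% interval from 6.67% to 65.2%, covering counting error only. Across all protein-coding genes, 3169 of 22367 were bound, or 14.2% (interval 13.7% to 14.6%). The background lies inside the interval of the 10 genes. With 10 genes the interval is wide, and whether their share differs from that of protein-coding genes in general was not tested. The 10 genes are a chosen set and not a random draw, so the interval is a description and not a test. The 10 genes have 31 annotated TSSs, of which 6 lay within 1000 bp of a peak midpoint, 4 of them at Klf4. No gene of the 10 had its nearest midpoint close to the 1000 bp limit on either side. The largest distance of a bound gene was 296 bp, at Klf5, and the smallest distance of an unbound gene was 9.01 kb, at Nanog.

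**Figure D1:**
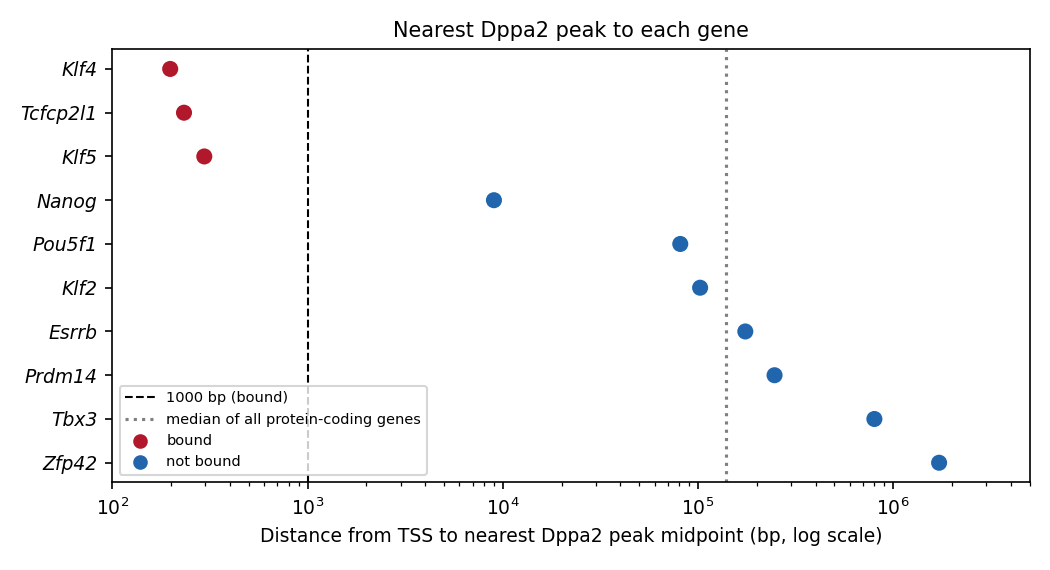
Distance in bp on a log scale from the nearest TSS of each of the 10 genes to the nearest Dppa2 peak midpoint, with bound genes in red and unbound genes in blue. The dashed line is the 1000 bp limit and the dotted line the median of all protein-coding genes, 139.8 kb. Klf4, Tcfcp2l1 and Klf5 sit between 198 and 296 bp, and the next gene, Nanog, at 9.01 kb. The list was treated as peaks at TSSs, so peaks elsewhere could be missing.

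Klf4 (ENSMUSG00000003032) encodes a zinc-finger factor downstream of LIF and STAT3 that is also used in reprogramming to pluripotency. It lies on the minus strand at chr4:55540013-55545347. Its Dppa2 peak spans chr4:55544786-55546303, which is 1518 bp, with a score of 203.69. The score, as the authors deposited it, is 10 times −log10 of the p-value that MACS gave the tagged ChIP over the control. The midpoint was 198 bp upstream of the most 5′ TSS, at 55545347, in intergenic sequence just outside the gene. The peak extended 956 bp upstream and 561 bp downstream of this TSS, so that it ended within the first exon, which runs to 608 bp downstream. Another pair of Klf4 TSSs, at 207 and 220 bp from the midpoint, lay inside the peak, and a TSS of a shorter transcript, at 903 bp, lay outside it.

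Klf5 (ENSMUSG00000005148) encodes another zinc-finger factor of the same family, which is needed for the inner cell mass and for ESC self-renewal. It lies on the plus strand at chr14:99697910-99712624 and has 1 annotated transcript. Its peak spans chr14:99697487-99698924, or 1438 bp, and had a score of 126.86. The midpoint was 296 bp downstream of the TSS, in the 5′ UTR of exon 1 and close to the start of the coding part, which begins at 304 bp. With 423 bp upstream and 1014 bp downstream of the TSS, the peak covered all of exon 1 and reached into the first intron.

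Tcfcp2l1 (ENSMUSG00000026380) encodes a factor of the CP2 and grainyhead family that acts downstream of LIF and STAT3. It lies on the plus strand at chr1:120524522-120581744, also with 1 annotated transcript. Its peak spans chr1:120524165-120525345, or 1181 bp, with a score of 158.48. The midpoint was 233 bp downstream of the TSS, in the first intron, because exon 1 ends at 157 bp. The peak reached 357 bp upstream and 823 bp downstream of the TSS and thus also covered the whole first exon.

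**Figure D2:**
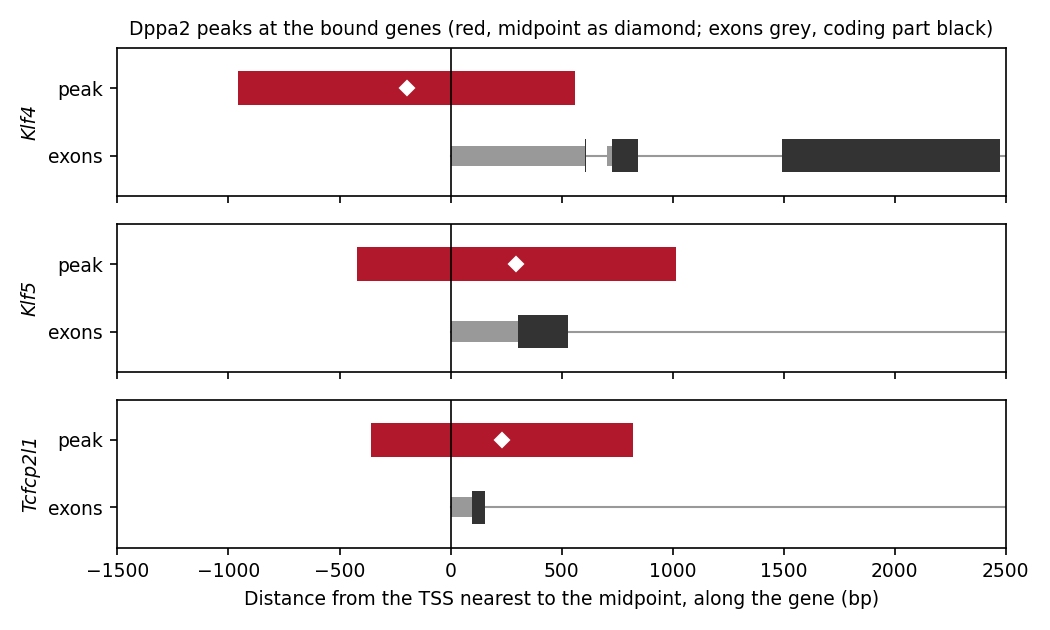
Dppa2 peaks (red bars, midpoint as a white diamond) and exons (grey, coding part black) at Klf4, Klf5 and Tcfcp2l1, drawn in bp along the direction of each gene from the TSS nearest to the midpoint. All 3 peaks span the TSS, with the midpoint at -198 bp for Klf4, 296 bp for Klf5 and 233 bp for Tcfcp2l1.

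All 3 peaks covered the TSS and the first exon in full or in large part, but they were placed differently around it. The midpoint was downstream at Klf5 and Tcfcp2l1 and upstream at Klf4. Among all bound protein-coding genes, 30.3% had the midpoint upstream and the median position was 121 bp downstream of the TSS. No other annotated gene had a TSS within 1000 bp of any of the 3 midpoints.

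The peaks at Klf4 and Klf5 were of ordinary width, and that at Tcfcp2l1 was just below the lower quartile of 1182.75 bp. All 3 were low in score. In the list of 3336 peaks, the width ranged from 360 to 9203 bp with a median of 1433 bp, and 57.4% of peaks were narrower than that of Klf4, 50.6% narrower than that of Klf5 and 24.8% narrower than that of Tcfcp2l1. The score ranged from 100 to 3100, with a median of 227.9 and quartiles of 155.5 and 348. By score, the peak at Klf4 ranked 1924, that at Tcfcp2l1 2469 and that at Klf5 2933. All 3 were below the median of all peaks and below the median of 221.03 of the 2909 peaks that bind protein-coding genes, and Klf5 was also below the lower quartile. At a score of at least 200, only Klf4 of the 10 genes remained bound, just above this limit, against 8.06% of protein-coding genes. A score depends on the read depth as well as on the enrichment, and the depth of these libraries is unknown here, so that binding below the authors' threshold at the unbound genes was not detectable here.

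**Figure D3:**
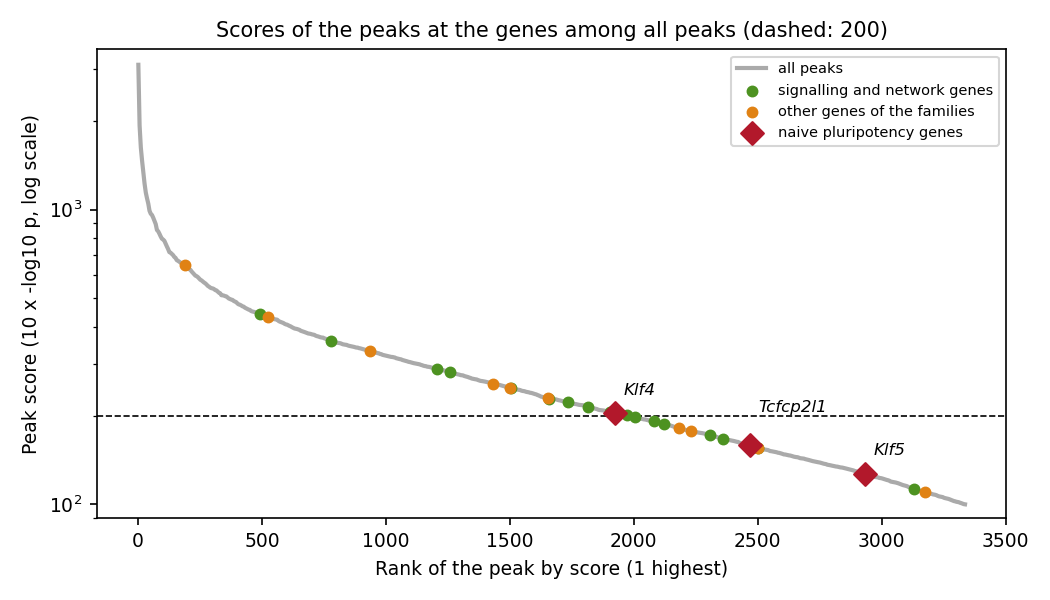
Score of every Dppa2 peak (log scale) against its rank from highest to lowest, with the peaks at Klf4, Tcfcp2l1 and Klf5 as red diamonds, those at the listed signalling and network genes in green and those at other members of the factors' families in orange. The dashed line is a score of 200. The red diamonds sit at ranks 1924, 2469 and 2933 of 3336.

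The list was treated as peaks at TSSs, and 2909 of its 3336 peaks bind protein-coding genes. Distances of the unbound genes are therefore mostly to peaks at other gene starts, and peaks away from TSSs could be missing from the list. Among the genes that were not bound, Nanog came nearest to a peak. Nanog (ENSMUSG00000012396) encodes a homeodomain factor of the core network and lies on the plus strand at chr6:122657507-122664651, with 4 annotated TSSs between 9.01 and 9.12 kb from the nearest midpoint. That peak, at chr6:122647694-122649298, had a score of 271.29 and lay upstream of Nanog at the pseudogene Gm10224, 550 bp from its TSS. A second peak, at chr6:122645682-122647093, had a score of 488.59, rank 388, and lay 11.1 kb upstream of Nanog at another pseudogene, Gm10420. Both scores were above those of the 3 bound genes. Both peaks were also largely made of repeated sequence. Of the 36-base words in them, 50.4% in the nearer and 57.0% in the farther peak occurred elsewhere in mm9, and a read that aligned to several places was kept at its best alignment. The part of this in the scores was not tested. For comparison, 66.0% of all peaks held no such word and 7.43% were over 50%, and the peaks at Klf4, Klf5 and Tcfcp2l1 held 0%.

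Pou5f1 (ENSMUSG00000024406), the POU factor without which the inner cell mass loses pluripotency, lies on the plus strand at chr17:35642982-35647721. Its 7 TSSs were 81.1 to 84.4 kb from the nearest midpoint, which belongs to a peak at H2-Q6, a gene of the major histocompatibility complex, with a score of 260.07. This peak was wide, at 2873 bp, and 68.9% of its 36-base words were repeated. Within 500 kb of Pou5f1 there were 8 peak midpoints, the highest number of the 10 genes, against a median of 2 for protein-coding genes. The region around Pou5f1 thus held several peaks, but none at the gene itself. This count was not set against the number of TSSs in the region, and repeated sequence is given only for the peak at H2-Q6.

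Klf2 (ENSMUSG00000055148), the Krüppel-like factor that overlaps with Klf4 and Klf5 in function, was 102 kb from the nearest midpoint, at Eps15l1, an endocytic adaptor gene, where the peak had a score of 133.98. Esrrb (ENSMUSG00000021255), an orphan nuclear receptor of the network, has 5 annotated TSSs at 175 to 318 kb from the nearest midpoint, which lay downstream at Vash1 with a score of 276.59. Prdm14 (ENSMUSG00000042414), a PR-domain factor that represses FGF signalling and DNA methyltransferase genes, was 247 kb from a midpoint at the coactivator gene Ncoa2, with a score of 211.66. These 3 genes each had between 1 and 3 midpoints within 500 kb and none within 100 kb.

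Tbx3 and Zfp42 were the most distant. Tbx3 (ENSMUSG00000018604), a T-box factor, has 6 TSSs at 800 to 810 kb from the nearest midpoint, which lay near the TSSs of Gm15690 and Sds with a score of 217.16. Zfp42 (ENSMUSG00000051176), the zinc-finger gene known as Rex1 and a widely used marker of the naive state, was 1.72 Mb away from the nearest midpoint. That peak lay in a coding exon of Fat1, a large cadherin gene, with a score of 274.58, and the nearest TSS to it, of the lincRNA Gm2366, was 1313 bp from the midpoint. Neither Tbx3 nor Zfp42 had any midpoint within 500 kb, as was the case for 23.7% of protein-coding genes. With a list treated as peaks at TSSs, this does not show that Dppa2 was absent from these regions.

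The median distance of the 7 unbound genes was 175 kb, against 191 kb for all unbound protein-coding genes. In order of distance, 16.9% of protein-coding genes were nearer to a peak than Nanog, 39.4% nearer than Pou5f1, 43.7% nearer than Klf2, 55.0% nearer than Esrrb, 62.5% nearer than Prdm14, 84.7% nearer than Tbx3 and 94.3% nearer than Zfp42. The unbound genes were thus spread over the whole range of protein-coding genes. Repeated sequence at their own promoters was limited. In the 2000 bp around the TSS the share of repeated 36-base words was 0% at Esrrb, Tbx3 and Nanog, as at the 3 bound genes, 0.662% at Pou5f1, 4.78% at Prdm14, 7.12% at Klf2 and 12.4% at Zfp42.

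Promoter CpG content was then measured as the observed-to-expected CpG ratio in the 1000 bp around the TSS shared by most transcripts, or the most 5′ of these. The ratio divides the number of CpG by the number that the C and G content would give at random order. It was 0.962 with 116 CpG at Klf4, 0.925 with 102 CpG at Klf5 and 0.586 with 52 CpG at Tcfcp2l1. Klf4 and Klf5 were among the CpG-richest promoters, with 96.4% and 93.7% of protein-coding genes lower, whereas Tcfcp2l1 was close to the middle, with 53.4% lower. Of the unbound genes, Tbx3 had a ratio of 0.823, Klf2 of 0.712, Esrrb of 0.661, Prdm14 of 0.506, Zfp42 of 0.486, Pou5f1 of 0.335 and Nanog of 0.287. The 2 genes at the centre of the network, Pou5f1 and Nanog, thus had the lowest ratios of the 10 at these TSSs. At the most 5′ TSS of each gene, Esrrb was lowest with 0.284, against 0.287 at Nanog and 0.335 at Pou5f1. The GC content ran from 48.6% at Zfp42 and 48.8% at Nanog to 66.6% at Klf5 and 69.7% at Klf4.

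The ratio could be set against the bound share of all genes with the same content. Protein-coding genes were divided into 10 equal classes by the ratio, from lowest to highest. The bound share rose through these classes from 0.715% and 1.92% to 34.8% in the highest, and bound protein-coding genes had a median ratio of 0.776 against 0.467 for the unbound. Klf4 and Klf5 were in the highest class, 34.8% of which was bound, and Tcfcp2l1 in class 6, with 14.9% bound. Tbx3 was in class 9 with 28.3% bound, Klf2 and Esrrb in class 7 with 16.7%, Prdm14 and Zfp42 in class 5 with 12.1%, and Pou5f1 and Nanog in class 4 with 7.47%. Taking classes 7 to 10 together, 2 of the 5 genes found there were bound, against 25.0% of all 8947 protein-coding genes in these classes. CpG content and the bound state went in the same direction, but within the 10 genes Tcfcp2l1 was bound with a lower ratio than Tbx3, Klf2 and Esrrb, which were not. For Esrrb this comparison and its place in class 7 rest on the TSS used, because its ratio at the most 5′ TSS was 0.284, against 0.586 at Tcfcp2l1.

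**Figure D4:**
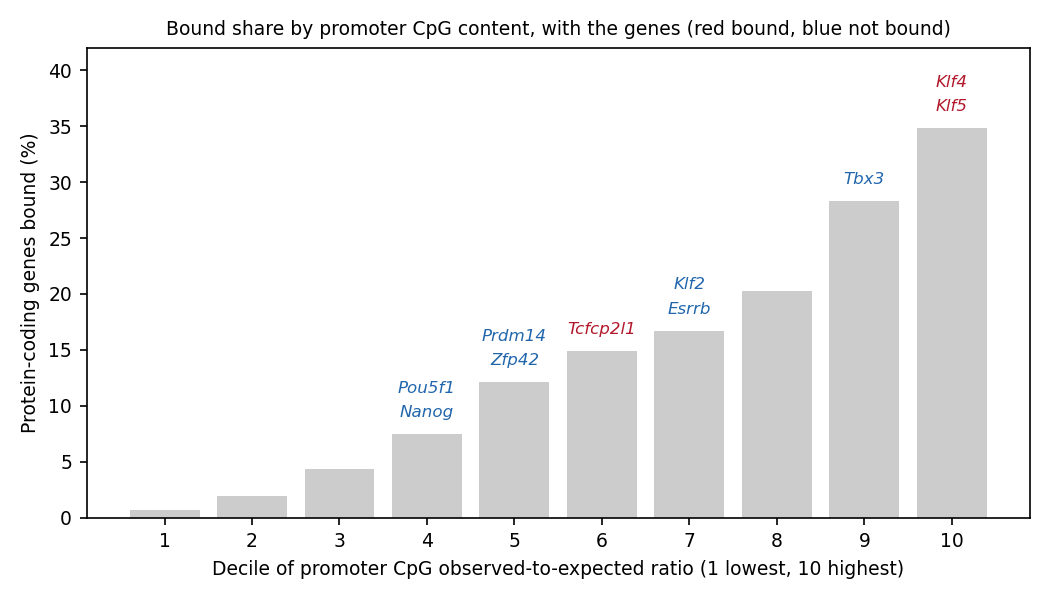
Bars give the percentage of protein-coding genes bound by Dppa2 in each decile of the promoter CpG observed-to-expected ratio (1000 bp around the TSS), and names above the bars give the decile of each of the 10 genes, red when bound and blue when not. The bars rise from 0.715% to 34.8%, with Klf4 and Klf5 in decile 10, Tcfcp2l1 in decile 6 and Pou5f1 and Nanog in decile 4.

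The sequence under the 3 peaks differed in the same manner as the promoters. The peak of Klf4 held 152 CpG, or 10.0 per 100 bp, with a ratio of 0.946, and that of Klf5 held 142, or 9.87 per 100 bp, with a ratio of 0.885. The peak of Tcfcp2l1 held 61 CpG, or 5.17 per 100 bp, with a ratio of 0.602. All peaks together had medians of 6.77 CpG per 100 bp and a ratio of 0.713, so that the peaks of Klf4 and Klf5 were above and that of Tcfcp2l1 was below the typical Dppa2 peak.

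The 250 bases upstream of the TSS were searched on both strands for 3 common promoter elements, the GC box (GGGCGG), the CCAAT box (CCAAT) and the TATA box (TATAAA). The GC box had 4 matches at Klf4, 2 at Klf2 and Zfp42, and 1 at Tbx3, Prdm14 and Pou5f1, and it was present at 40.1% of all protein-coding promoters (63.7% of bound and 36.2% of unbound genes). The CCAAT box had 2 matches at Klf5 and 1 at Esrrb, Zfp42, Prdm14 and Pou5f1, and was present at 34.8% of all promoters (29.4% of bound and 35.7% of unbound genes). The TATA box was found at Tcfcp2l1 alone among the 10, which can be read in its sequence above as tataaa near the 3′ end, and is held by 12.4% of promoters, 5.81% of bound and 13.5% of unbound genes. The 3 bound genes shared none of these elements. Matches are letters in a window and do not show that a factor binds there.

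The genes were next compared with other members of their own gene families, which were taken from a list of 76 symbols of which 75 were found. Of these relatives, 11 were bound, or 14.7%, close to the background of 14.2%. In the Krüppel-like family, including the members above, 4 of 17 genes were bound. Besides Klf4 and Klf5 these were Klf13, with a score of 646.79 and rank 189, and Klf14, with a score of 330.64, so that the strongest peaks of the family were outside the naive pluripotency genes. Of the related Sp factors, Sp2 had a peak with a score of 247.53 at 961 bp from a TSS and Sp3 one with a score of 109.71. In the CP2 and grainyhead family, 2 of 6 genes were bound, Tcfcp2l1 and the epithelial factor Grhl1, which had a score of 431.23.

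The remaining families had bound shares near the background of 14.2% or no bound gene. Counting a bound member raises the share of its family, and the Krüppel-like family also holds Klf2, which was not bound. Among relatives alone, 4 of 23 Krüppel-like and Sp genes (17.4%) and 1 of 5 CP2 and grainyhead genes (20%) were bound. Differences between families were not tested. The T-box family had 2 bound of 17, the limb factor Tbx4 with a score of 155.66 and the T-cell factor Tbx21 with 181.09. The PRDM family had 2 of 15, among them Prdm15 with a score of 256.57. The POU family had 2 of 14, both neural factors, Pou3f1, which the list of network genes also holds, with 197.68 and Pou4f1 with 177.7. The estrogen-related receptors had 0 of 3 and the YY family, to which Zfp42 is related, had 0 of 2 relatives bound. At a score of at least 200, 6 of the 75 relatives were left, which is 8% against a background of 8.06%.

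The signals and partner factors that surround these genes in ESCs were examined in the same way. Of 87 listed genes 86 were found, and 17 of them, or 19.8%, were bound, against 14.2% of protein-coding genes. The median promoter CpG ratio of the list was 0.789, which falls in class 8, where 20.3% of protein-coding genes were bound. The part of CpG content in this count was not tested. Of 20 other genes of the core network, such as Sox2, Sall4, Nr5a2, Nr0b1, Mycn and Dppa2 itself, 1 was bound, the transcriptional regulator gene Nacc1, with a score of 112.72 at 884 bp from a TSS. Of 12 genes of the formative and primed states, such as Otx2 and Fgf5, Pou3f1 was the 1 that was bound. The median CpG ratio was 0.651 for the core network list, in class 6 with 14.9% of protein-coding genes bound. For the formative and primed list it was 0.789, in class 8 with 20.3% bound. Both counts are small, and their difference from these shares or from the background of 14.2% was not tested.

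The counts for the signalling pathways are a description beside the 14.2% of all protein-coding genes that were bound, and no pathway was tested against it. For LIF and STAT3 signalling this was 3 of 10, namely the receptor gene Lifr, with a score of 280.36 and a midpoint 71 bp upstream of its TSS, the kinase gene Jak1, with 221.97, and the target and kinase gene Pim1, with 166.94. The ligand gene Lif, the shared receptor gene Il6st and Stat3 itself were not bound. For BMP signalling 2 of 10 were bound, the receptor gene Bmpr1a with 228.53 and the effector gene Smad1 with 442.86. For FGF and ERK signalling 3 of 13 were bound, among them the receptor gene Fgfr1 with 205.61 and the ETS factor gene Etv4 with 188.02. The median CpG ratio was 0.726 for the LIF and STAT3 list and 0.664 for the BMP list. Both fall in class 7, with 16.7% of protein-coding genes bound. For the FGF and ERK list it was 0.819, in class 9 with 28.3% bound.

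In Wnt and GSK3 signalling 4 of 12 genes were bound, again beside a background of 14.2%. These were Gsk3a, which encodes a kinase of the β-catenin destruction complex, with a score of 288.46, the scaffold gene Axin1 with 214.51, and the co-receptor genes Lrp5 with 247.26 and Lrp6 with 191.15. Of the Nodal and activin genes 3 of 9 were bound, the receptor genes Acvr2a with 200.65 and Acvr2b with 155.72 and the effector gene Smad2 with 358.69. The median CpG ratio was 0.833 for the Wnt and GSK3 list, in class 9 with 28.3% of protein-coding genes bound. For the Nodal and activin list it was 0.601, in class 6 with 14.9% bound. At a score of at least 200, 10 of the 86 signalling and network genes were left, which is 11.6% against 8.06% of all protein-coding genes.

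The signalling genes, with Fgf5 from the formative and primed list, were sorted by their role after their values had been seen. Of the receptors and co-receptors 7 of 13 were bound, and of the cytoplasmic transducers 4 of 13. The counts were 3 of 14 for signal-regulated transcription factors, 1 of 8 for feedback inhibitors and targets, and 0 of 7 for ligands. Fgf5, Lefty1 and Lefty2 were counted as ligands. Of all protein-coding genes 14.2% were bound, and 34.8% in the highest class of CpG ratio, where the median of the receptors falls. The promoter CpG ratio was not equal between these roles, with a median of 0.887 for the receptors, 0.834 for the transducers, 0.801 for the transcription factors, 0.825 for the feedback genes and 0.444 for the ligands. Its part in the counts was not tested. The ligands had both the lowest count of bound genes and the lowest CpG ratio of the 5 roles. The feedback genes, however, had a higher ratio than the transcription factors but a lower bound share, 12.5% against 21.4%.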

How the data were processed

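Anti-V5 ChIP-seq of CGR8 cells with V5-Dppa2 and of the parental line was represented by 1 library each. Before depositing the list, the authors removed low-complexity and duplicate reads, aligned with Bowtie 0.12.7 to mm9 (seed 36, at most 2 mismatches, best alignment kept) and called peaks with MACS 1.4.2 at a shift of 75 bp. The submitters' processing notes also name Picard 1.81. Peaks were retained from 100 reads and up to a p-value of 1e-10. The deposited score is 10 times −log10 of the p-value from MACS. The peaks are named after TSSs, and the list was treated as peaks at TSSs. It gives no summits, so midpoints were used.

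Distances were computed to all TSSs of GENCODE M1, and content from the mm9 genome. Intervals are exact Clopper-Pearson at 95%. With 1 library there was no replicate, and depth is unknown. Distances to the nearest midpoint, CpG content and 36-base word counts were tested on simulated data.

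The 10 genes and the lists were chosen with earlier results of these data known. Genes named are these 10, each bound gene of the lists, and the gene nearest to the peak closest to each unbound member; unbound list genes named as examples and the second peak near Nanog were added after their values were seen. Some bound genes of the lists are counted but not reported here by name. Alternatives were other scores, windows, peak positions, TSS sets and sequence windows. Python 3.11.15, numpy 2.4.6, pandas 2.3.3, scipy 1.17.1, numba 0.67.0 and matplotlib 3.10.9 were used.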

Additional observations from a re-analysis of the deposited data

How the results depend on the processing

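Klf4, Klf5 and Tcfcp2l1 were the genes bound with windows of 500, 2000 and 5000 bp, when the nearest base of a peak was used instead of the midpoint, and with both other TSS sets. A stricter score leaves fewer peaks by construction. At a score of at least 200, 1 of the 10 genes (Klf4), 10 signalling and network genes, 6 family relatives and 8.06% of protein-coding genes were bound, and at 150, 2 of the 10 (Klf4 and Tcfcp2l1) and 10.7%. The share of protein-coding genes was 12.6% with 500 bp, 15.5% with 5000 bp and 13.5% with 1 TSS per gene. The median CpG ratio of the 10 genes, 0.623, became 0.731 in 500 bp around the TSS and 0.546 at the most 5′ TSS, where Esrrb went from 0.661 to 0.284. Of 35 recomputed values, 25 stayed within 1.5 times the count, the interval of the share or 10% of the median. No paired analysis was possible because there was 1 library of each kind. The depth is unknown and the list was treated as peaks at TSSs, so an absent peak does not show absent binding.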
